A study of Homo sapiens with 16 samples.

Results

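The 41 genes described here are interferon-stimulated genes (ISGs), taken by name from a list of RNA sensors, interferon transcription factors and antiviral effectors. All 41 were found among the 20114 genes of the count table, and the list was not chosen by a threshold on these libraries, although it was drawn up with earlier results of these data known. They were measured in 2 human cell lines, Hs578 and TT642, that can be made to express a short hairpin RNA (shRNA) against PRRX1 by adding doxycycline, PRRX1 being a homeobox factor typical of mesenchyme. Hs578 derives from a breast cancer. For TT642 the source label reads rhabdoid tumour, whereas the series design counts it, like Hs578, as triple-negative breast cancer. Both were profiled as the parental line, which has no hairpin, and as 3 derivatives, each with 1 of the PRRX1 hairpins numbered 1 to 3, with doxycycline at 0 or 3 µg/ml. This gave 16 libraries in 8 pairs, with 3 libraries in a hairpin group and 1 in a parental group. Parental cells with doxycycline carry no hairpin, so they show the drug without a knockdown. How long the drug was given is not stated in the labels. They also do not say whether the libraries are separate cultures. The 3 libraries of a hairpin group are derived lines with different hairpins and are not repeats of 1 line. The p-values and SDs therefore describe only the spread between these lines, technical spread included. The main test does not use the pairing of libraries with and without doxycycline, and a fit that does is given as an alternative.

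Type I and type III interferons bind their receptors and activate JAK kinases, which phosphorylate STAT proteins. A complex that holds STAT2 and IRF9 then binds the interferon-stimulated response element (ISRE) in the promoters of ISGs. The products sense viral RNA, block its translation, degrade it, tag proteins with ISG15 or keep viruses out of the cell, and many tumour lines express part of this programme without infection.

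The ISRE core is GAAA, then any 2 bases, then GAAA, read on either strand. RefSeq promoters (GRCh38.p14) were at hand for 33 of the 41 genes. In the 250 bases before the start, this core stood in 23 of the 33 genes (69.7%) and in 3.71% of 27305 genes with a promoter in the same table. The following windows are from the 6 genes with an ISRE core whose TT642 values differed most between a library with and a library without doxycycline. Each line gives the core in capitals with 15 bases on either side, 5′ to 3′ on the strand of the gene.
RSAD2 (chr2:6877617-6877656, strand +): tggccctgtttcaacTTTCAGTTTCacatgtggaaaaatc
IFIT1 (chr10:89392492-89392544, strand +): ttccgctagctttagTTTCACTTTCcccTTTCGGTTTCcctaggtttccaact
IFIT3 (chr10:89332420-89332502, strand +): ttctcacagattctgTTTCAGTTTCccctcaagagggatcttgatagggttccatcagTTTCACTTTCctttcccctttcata
HERC5 (chr4:88456979-88457069, strand +): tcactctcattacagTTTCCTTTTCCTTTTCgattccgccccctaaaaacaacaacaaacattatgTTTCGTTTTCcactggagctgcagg
MX1 (chr21:41431839-41431878, strand +): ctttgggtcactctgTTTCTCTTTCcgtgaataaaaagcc
DDX60 (chr4:168318781-168318855, strand -): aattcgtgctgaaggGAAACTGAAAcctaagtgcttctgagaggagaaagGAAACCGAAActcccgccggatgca
RSAD2 and MX1 each held 1 stretch in capitals, IFIT1, IFIT3 and DDX60 held 2, and HERC5 held 3 cores, of which the first 2 share bases. The core nearest to the start ended 42 bases before it in IFIT3 and 187 bases before it in MX1. A match of these letters is a description and does not show that a protein binds there.

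Levels are given in CPM, the count of a gene scaled to the TMM-adjusted size of its library. Total counts were 13461527 to 19139654 in the Hs578 libraries and 15265227 to 24672906 in the TT642 libraries. In TT642, PRRX1 stood at 1484 to 1533, 1213 to 265, 1409 to 184 and 1301 to 513 CPM in parental cells and in the lines with hairpins 1, 2 and 3, each first without and then with doxycycline. With doxycycline, 21.8% (95% interval 21.1% to 22.5%) of it was left with hairpin 1, 13% (95% interval 12.6% to 13.5%) with hairpin 2 and 39.4% (95% interval 38.6% to 40.3%) with hairpin 3. In Hs578, in the same order, PRRX1 stood at 289.8 to 298, 291 to 37.1, 227 to 72.8 and 262 to 51 CPM. SMARCB1, which rhabdoid tumours typically lose, was present at 28.8 to 41.6 CPM in TT642 and at 87.7 to 125 CPM in Hs578. Of 9 mesenchymal markers, 9 in Hs578 and 7 in TT642 were above 1 CPM in every library of the line, and of 13 breast epithelial markers, 6 in Hs578 and 2 in TT642 were. Of 13 blood and immune cell markers, 12 stayed below 1 CPM in all 8 TT642 libraries and 10 in all 8 Hs578 libraries. PTPRC, the pan-leukocyte marker, had no count in any TT642 library, and the 4 endothelial markers in the table were below 1 CPM throughout both lines. The summed CPM of the 41 genes ran from 1437 to 2751 in Hs578 and from 2173 to 3880 in TT642. All 41 genes passed the filter on low counts over the 16 libraries, but HERC5 would not have passed in Hs578 alone, nor PARP9, TRIM22 and EPSTI1 in TT642 alone.

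In TT642, doxycycline was accompanied by lower ISG levels in 2 of the 4 pairs, the line with hairpin 2 and the parental cells. With hairpin 2, 22 of the 41 genes were lower by at least 2-fold and 0 higher, where 1.93% of all 14035 genes tested were lower and 2.57% higher by that much. The 22 include EPSTI1, which had 3 and 0 counts in this pair and passed the filter only through Hs578. In the parental pair, which has no hairpin, 12 were lower and 0 higher, against 1.03% and 0.762% of all genes. On the deposited FPKM scale, by the ratio of FPKM + 1, which draws low values together, the parental count was 6 and that of hairpin 2 was 17, all lower. The share of all genes on that scale is not given here. The pair with hairpin 1 had 1 gene lower and 1 higher (1.6% and 1.64% of all genes), and that with hairpin 3 likewise had 1 of each (0.819% and 1.01%). The median log2 ratio of the 41 genes was -1.21 with hairpin 2, -0.75 in parental cells, -0.11 with hairpin 1 and 0.06 with hairpin 3, beside a median near 0 for all genes in each pair. The median with hairpin 2 is the ratio of EPSTI1, which rests on few reads. Each of these ratios sets 1 library against 1, so none has a replicate check. In these bulk libraries, fewer cells that express a gene and less of its RNA per cell cannot be told apart.

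The 12 genes past 2-fold by CPM in the parental pair were all among the 22 with hairpin 2, namely DDX58, ISG15, HERC5, IFIT1, IFIT3, OAS1, OAS2, OASL, MX1, MX2, RSAD2 and CMPK2. The 2 pairs share no library. The lowest of the 4 ratios was that of hairpin 2 for 32 genes, that of the parental pair for 8 and that of hairpin 1 for 1. Of PRRX1 itself, 13% (95% interval 12.6% to 13.5%) was left with hairpin 2 and 21.8% (95% interval 21.1% to 22.5%) with hairpin 1. With hairpin 3, 39.4% (95% interval 38.6% to 40.3%) was left. The median log2 ISG ratios were -1.21 with hairpin 2, -0.11 with hairpin 1 and 0.06 with hairpin 3. A relation of these medians to the PRRX1 left was not tested and would rest on 3 lines. The parental cells, with the second lowest ISG median, kept 103% (95% interval 102% to 105%) of their PRRX1. Reads of mitochondrial genes made up 2.59% to 3.98% of a TT642 library, and the highest share was in the induced library of hairpin 3.

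**Figure D1:**
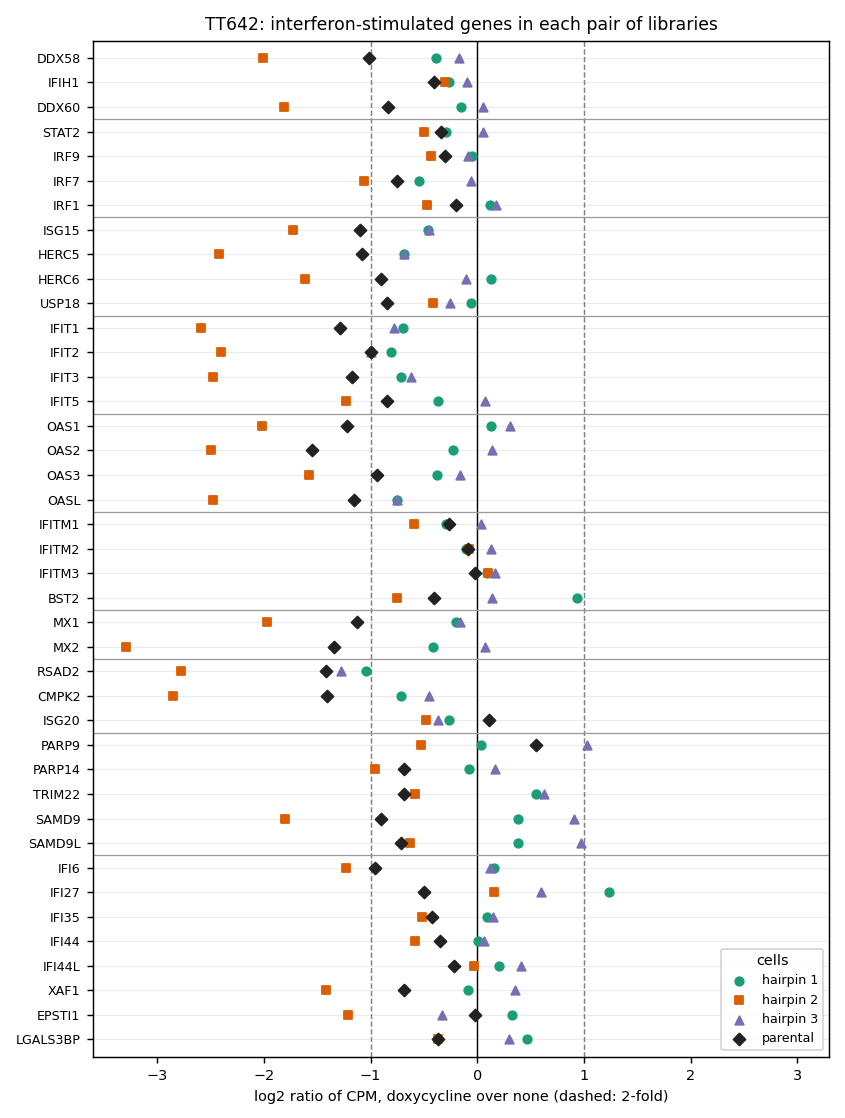
Log2 ratio of CPM with over without doxycycline (x axis) for each of the 41 genes (y axis, ordered by role) in the 4 TT642 pairs, 1 point per pair, with dashed lines at 2-fold. The points of hairpin 2 lie farthest to the left for 32 genes and those of the parental cells for 8, whereas hairpins 1 and 3 lie near 0 for most.

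Runs of 4 value pairs below are in CPM, in the order parental, hairpin 1, hairpin 2 and hairpin 3, each from the library without to the library with doxycycline. Among the RNA sensors, DDX58, which encodes the RIG-I sensor of viral RNA ends, was measured at 159 to 78.5, 103 to 78.7, 128 to 31.7 and 77.7 to 69 CPM. DDX60, a helicase linked to RIG-I signalling, stood at 136 to 75.7, 83.7 to 75.2, 110.4 to 31.5 and 61.9 to 64.4 CPM. Both had their lowest value in the induced library of hairpin 2, and both were also lower in the induced parental cells. IFIH1, the MDA5 sensor of long double-stranded RNA, had 349 to 263, 384 to 319.9, 505 to 411 and 373 to 348 CPM, and its induced and uninduced libraries overlapped across hairpins. It moved less than DDX58, with 81.3% (95% interval 79.1% to 83.7%) left with hairpin 2 where DDX58 kept 24.9% (95% interval 22.8% to 27.1%). These intervals are exact binomial and, like the others given here, cover counting error only.

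Of the transcription factors, IRF7, the amplifier of interferon gene expression, was measured at 46.9 to 27.7, 41.8 to 28.6, 36.9 to 17.6 and 29.8 to 28.6 CPM, with all 3 induced hairpin libraries below the 3 uninduced ones. IRF9, the DNA-binding partner of STAT2, stood at 42.9 to 34.7, 49.3 to 47.6, 45.6 to 33.7 and 43.3 to 40.7 CPM. STAT2 had 47.8 to 37.7, 57.2 to 46.8, 49.2 to 34.7 and 44.4 to 46.1 CPM. IRF1, which responds chiefly to interferon gamma, had 102 to 89.1, 80 to 86.8, 89.6 to 64.5 and 87.5 to 99.2 CPM. IRF7 alone of the 4 passed 2-fold in a pair, that of hairpin 2, and the induced and uninduced hairpin libraries overlapped for the other 3.

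ISG15, the ubiquitin-like protein that is joined to other proteins after interferon, stood at 120.2 to 56, 78.3 to 57, 79.4 to 24 and 68.8 to 50.2 CPM. Every induced library was below its partner, and 30.2% (95% interval 27.3% to 33.3%) was left with hairpin 2 and 46.6% (95% interval 43.4% to 50%) in parental cells. HERC5, the main ligase that attaches ISG15, was measured at 33.6 to 15.8, 17.2 to 10.6, 28.6 to 5.25 and 17.2 to 10.7 CPM. Its 3 induced hairpin libraries lay below all 3 uninduced ones, as they did for ISG15. HERC6, a related HERC protein, had 35.4 to 18.9, 23.6 to 25.9, 27.9 to 9.02 and 18.5 to 17.2 CPM and was past 2-fold with hairpin 2. USP18, which removes ISG15 and dampens the receptor, had 13.3 to 7.4, 11.3 to 10.9, 9.43 to 7.06 and 10.6 to 8.81 CPM and was past 2-fold in no pair.

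The IFIT proteins bind viral RNA and block its translation, and all 4 were lower by at least 2-fold with hairpin 2. IFIT1 stood at 166 to 68.2, 90.6 to 55.7, 146 to 24.2 and 80.5 to 46.8 CPM, which left 16.5% (95% interval 15% to 18.2%) with hairpin 2 and 41.1% (95% interval 38.5% to 43.8%) in parental cells. IFIT2 had 104 to 52.1, 62.7 to 35.7, 119.9 to 22.6 and 66.5 to 33.3 CPM. IFIT3 had 105 to 46.7, 56.6 to 34.4, 95.6 to 17.1 and 51 to 33.2 CPM. For IFIT1, IFIT2 and IFIT3, all 4 induced libraries were below their partners, and the induced and uninduced hairpin libraries did not overlap. IFIT5 had 115 to 63.8, 77.7 to 60.2, 87.6 to 37.2 and 57.9 to 60.8 CPM, with its hairpin 3 pair going the other way.

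The OAS enzymes make the messenger that activates RNase L, apart from OASL, which lacks that activity. OAS1 had 18.3 to 7.76, 9.75 to 10.7, 10.9 to 2.6 and 6.84 to 8.46 CPM. OAS2 had 111 to 38, 64.3 to 55.1, 75.9 to 13.4 and 38 to 41.9 CPM, which left 17.6% (95% interval 15.5% to 20%) with hairpin 2 and 34.2% (95% interval 31.5% to 37.2%) in parental cells. Both were near or above their partner with hairpin 3, so their groups overlapped. OAS3 had 217 to 113, 161 to 124, 156 to 52.1 and 125 to 111 CPM, and OASL had 49.9 to 22.4, 33.1 to 19.6, 46.9 to 8.32 and 31.3 to 18.5 CPM. The induced hairpin libraries lay below the uninduced ones for OAS3 by a narrow margin and for OASL by a wide one.

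MX1, a GTPase that traps viral nucleoproteins, had 298 to 136, 115 to 100.4, 54.3 to 13.8 and 96.2 to 86 CPM. Its uninduced levels already differed among lines, from 298 CPM in parental cells to 54.3 CPM with hairpin 2. MX2, its relative that acts at the nuclear envelope, was near the detection limit at 2.51 to 0.925, 2.04 to 1.51, 2.33 to 0.139 and 0.834 to 0.885 CPM. With hairpin 2 its counts were 48 without and 3 with doxycycline, or 5.97% (95% interval 1.19% to 18.5%) left. RSAD2 (viperin), which makes a chain-terminating nucleotide, had 7.3 to 2.67, 2.61 to 1.21, 3.84 to 0.465 and 3.5 to 1.38 CPM and was lower by at least 2-fold in all 4 pairs, the 1 gene of the list to be so with hairpin 1 and with hairpin 3. CMPK2, the mitochondrial nucleotide kinase encoded beside RSAD2, had 8.93 to 3.29, 4.93 to 2.95, 5.74 to 0.697 and 4.45 to 3.23 CPM. For RSAD2 and CMPK2 all 4 induced libraries were below their partners and the hairpin groups did not overlap. ISG20, an RNA exonuclease, had 8.28 to 8.94, 8.28 to 6.87, 7.68 to 5.48 and 8.23 to 6.35 CPM, with small differences in each pair.

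**Figure D2:**
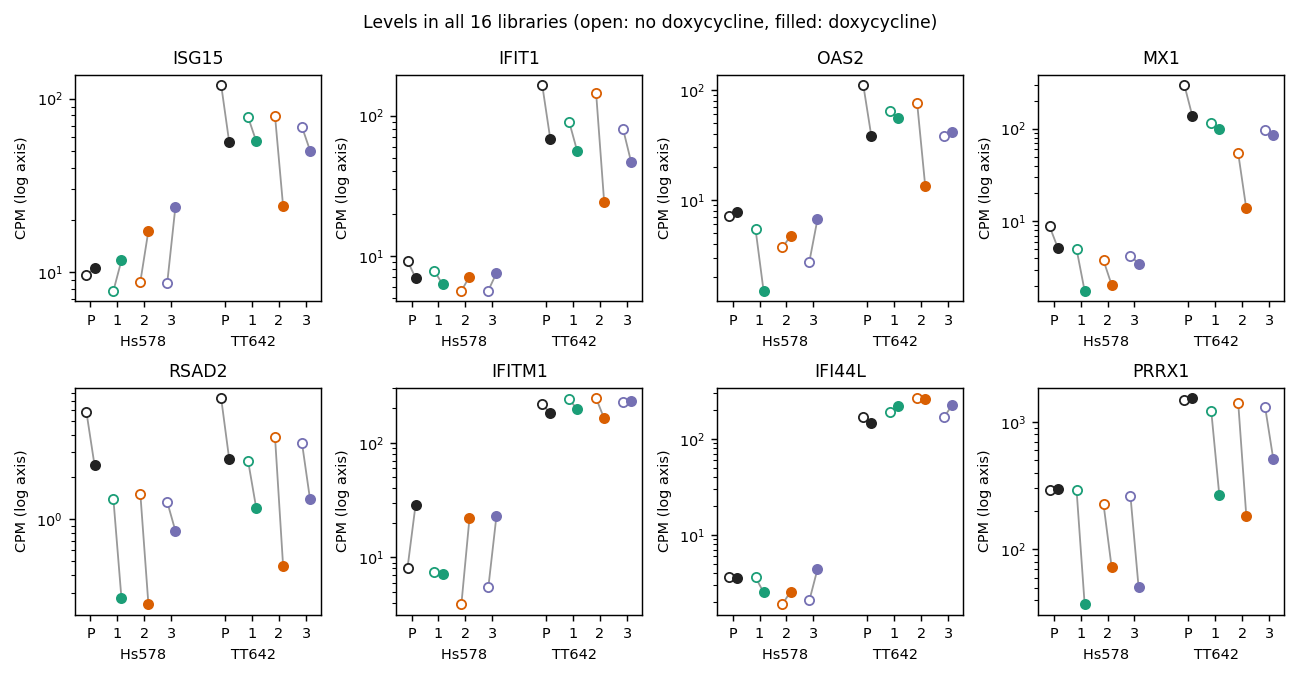
CPM on a log axis for 7 of the genes and PRRX1 in all 16 libraries, by line and by parental cells (P) or hairpin (1, 2, 3), with open points without and filled points with doxycycline. In TT642 the filled point of hairpin 2 is the lowest for ISG15, IFIT1, OAS2, MX1 and RSAD2, while IFI44L stays between 145 and 265 CPM.

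Other genes differed less within the TT642 pairs. The IFITM proteins, which block virus entry at membranes, were among the most abundant. IFITM1 had 217 to 181, 240.1 to 196, 245 to 163 and 227 to 232 CPM. IFITM2 had 137 to 129, 159 to 148, 194 to 184 and 174 to 189 CPM. IFITM3 had 282 to 277, 311 to 331, 298 to 319.7 and 329.98 to 371 CPM. None of the 3 was past 2-fold in any pair. The 3 are near-identical neighbouring genes whose reads may have been split in counting, so their single values are uncertain. BST2 (tetherin), which holds budding viruses at the surface, had 25.5 to 19.2, 9.24 to 17.8, 10.1 to 5.95 and 8.68 to 9.58 CPM and passed 2-fold in none of the 4 pairs. IFI44L had 168 to 145, 191 to 221, 265 to 259 and 169 to 224 CPM, and no pair of it came near 2-fold. Its neighbour IFI44 had 92.2 to 72.2, 109.5 to 109.9, 156 to 104 and 92.5 to 96.9 CPM. IFI35 had 71.2 to 53, 61.7 to 65.9, 65.1 to 45.5 and 55.8 to 61.7 CPM. IFI27, a mitochondrial protein, had 4.05 to 2.83, 3.8 to 9.1, 7.58 to 8.46 and 3.34 to 5.12 CPM, past 2-fold higher with hairpin 1. LGALS3BP, a secreted glycoprotein, had 30.1 to 23.2, 32.1 to 44.4, 36.7 to 28.3 and 25.5 to 31.4 CPM.

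IFI6, an endoplasmic reticulum protein that resists flaviviruses, had 255 to 131, 169 to 188, 163 to 69.6 and 116 to 126 CPM and was lower past 2-fold with hairpin 2. XAF1, a binding partner of the apoptosis inhibitor XIAP, had 72 to 44.7, 56.2 to 52.8, 77.9 to 29 and 47.1 to 60.2 CPM and was lower past 2-fold in the same pair. PARP14, an ADP-ribosyltransferase, had 209 to 129.96, 145 to 137, 162 to 83.2 and 126 to 141 CPM. SAMD9, a cytosolic protein that restricts poxviruses, had 17 to 9.04, 10 to 13.1, 15.9 to 4.51 and 6.45 to 12.2 CPM. SAMD9L, its neighbour and relative, had 3.12 to 1.85, 1.87 to 2.47, 1.22 to 0.744 and 0.946 to 1.96 CPM. SAMD9 was past 2-fold lower with hairpin 2, and SAMD9L in no pair. PARP9, TRIM22 and EPSTI1 were close to 0 in TT642, at no more than 0.115, 0.301 and 0.418 CPM in any library, and ratios of such values rest on few reads. The 1 gene past 2-fold higher with hairpin 3 was PARP9, with 0 and 3 counts.

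By role, the genes lower by at least 2-fold with hairpin 2 were 2 of 3 sensors, 1 of 4 transcription factors, 3 of 4 in the ISG15 system, 4 of 4 IFIT genes, 4 of 4 OAS genes, 2 of 2 MX genes, 2 of 3 nucleotide and RNA enzymes, 1 of 5 PARP, TRIM and SAMD9 genes, 3 of 8 other interferon-induced genes and 0 of 4 in the IFITM and tetherin group. Of the 23 genes with a core in the 250 bases, 12 were past 2-fold with hairpin 2 (median log2 ratio -1.21), and of the 10 with none there, 5 were (median -1.03). EPSTI1, with 3 and 0 counts in this pair, is among the 3 of 8 and among the 12. Its ratio is the median of the 23. IFIT1, IFIT3, RSAD2, HERC5, MX1 and DDX60, whose cores are printed above, had log2 ratios of -2.59, -2.48, -2.78, -2.42, -1.97 and -1.81 in that pair.

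Over the 3 hairpin lines of TT642, edgeR's quasi-likelihood test with Benjamini-Hochberg adjustment over 14035 genes called 0 of the 41 ISGs at an adjusted p under 0.05, where it called 0.0285% of all genes (0.0143% higher and 0.0143% lower). At an unadjusted p under 0.05, 12 of the 41 were found, but the share of all genes at that level is not given here. The estimate was below 0 for 33 of the 41, with a median log2 fold change of -0.35 beside a median near 0 for all genes. The smallest adjusted p was that of IFIT2, with a log2 fold change of -1.45 (SE 0.23, adjusted p = 0.0823). RSAD2 had -1.70 (SE 0.36, adjusted p = 0.168), HERC5 -1.25 (SE 0.27, adjusted p = 0.168), OASL -1.26 (SE 0.29, adjusted p = 0.223), IFIT1 -1.33 (SE 0.30, adjusted p = 0.223) and IFIT3 -1.27 (SE 0.31, adjusted p = 0.277). The induced and uninduced groups of 3 did not overlap for 11 ISGs, all lower (IRF7, ISG15, HERC5, IFIT1, IFIT2, IFIT3, OAS3, OASL, RSAD2, CMPK2 and ISG20), where 6.31% of all genes were lower and 8.54% higher without overlap. DESeq2 called 6 of the 41, all lower, namely IFIT2, IFIT3, OASL, HERC5, IFIT1 and RSAD2, and limma on log2(FPKM + 1) called 1. EdgeR called 1 when the uninduced library of hairpin 2 was left out. The share of all genes called in these alternatives is not given here, so these counts do not set the ISGs apart. PRRX1, the target, was likewise not called by edgeR in TT642, with -2.03 (SE 0.36, adjusted p = 0.166).

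The parental cells of TT642 allow the hairpin effect to be set against that of doxycycline alone. Net of the parental pair, 0 of the 41 were called, none had an unadjusted p under 0.05, and 0% of all genes were called. DESeq2 and limma on FPKM also called 0. The parental groups hold 1 library each, which the fit takes to vary like the other groups. IFIT2 had a net log2 difference of -0.45 ± 0.45 (SE) and IFIT1 of -0.05 ± 0.58, while OAS1 had 0.88 ± 0.75 and OAS2 0.85 ± 1.03. With standard errors of this size, the comparison does not show whether parental and hairpin cells changed alike. All 4 TT642 pairs, parental included, were also fitted in edgeR with the pair as a block, which was chosen after seeing the data. In that fit 0 ISGs and 0% of all genes were called, with a smallest adjusted p of 0.0851 for RSAD2. At an unadjusted p under 0.05 there were 21 ISGs, but the share of all genes at that level is not given here.

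Without doxycycline, the TT642 hairpin lines stood below the parental cells for 30 of the 41 genes, with a median log2 difference of -0.52. For counts at an unadjusted p or with libraries left out in this comparison, the share of all genes is not given here. None was called by edgeR, where 0.919% of all genes were, although 6 had an unadjusted p under 0.05. MX1 gave one of the widest spreads, from 298 CPM in parental cells to 115, 54.3 and 96.2 CPM with hairpins 1, 2 and 3. ISG15 stood at 120 CPM in parental cells and at 78.3, 79.4 and 68.8 CPM in the hairpin lines. Without the libraries of hairpin 2, the test called 5 ISGs, all lower than in parental cells, and without the induced library of hairpin 2 alone it called 1. In Hs578 the same comparison called 0 of 41 and 0% of all genes, with 1 ISG at an unadjusted p under 0.05. DESeq2 called 0 in both lines.

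In Hs578, doxycycline was accompanied by higher levels of the IFITM genes and ISG15 and by lower levels of RSAD2 and 2 PARP genes. Over the 3 hairpin lines, edgeR called 10 of the 41 genes, 6 higher and 4 lower, where 29.3% of all genes were called, 15.2% higher and 14.1% lower, so the members' share was no larger than that of genes at large. The 6 that rose were IFI27, IFITM1, IFITM2, ISG15, IFITM3 and LGALS3BP, and the 4 that fell were RSAD2, PARP14, IFIH1 and PARP9. The median log2 fold change of the 41 was -0.18. By pairs, 0 genes were higher and 7 lower by at least 2-fold with hairpin 1 (1.68% and 3.47% of all genes), 5 higher and 1 lower with hairpin 2 (3.9% and 3.28%), 9 higher and 0 lower with hairpin 3 (4.4% and 3.73%), and 6 higher and 4 lower in parental cells (6.08% and 3.12%). By the ratio of FPKM + 1, 0 genes passed 2-fold with hairpin 1, and 5 were higher and 1 lower in parental cells. The parental pair, 1 library against 1, thus also held genes past 2-fold. Sizes differed by gene, with ISG15 and IFI6 changing less there than in each hairpin pair and IFITM2 and BST2 more.

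**Figure D3:**
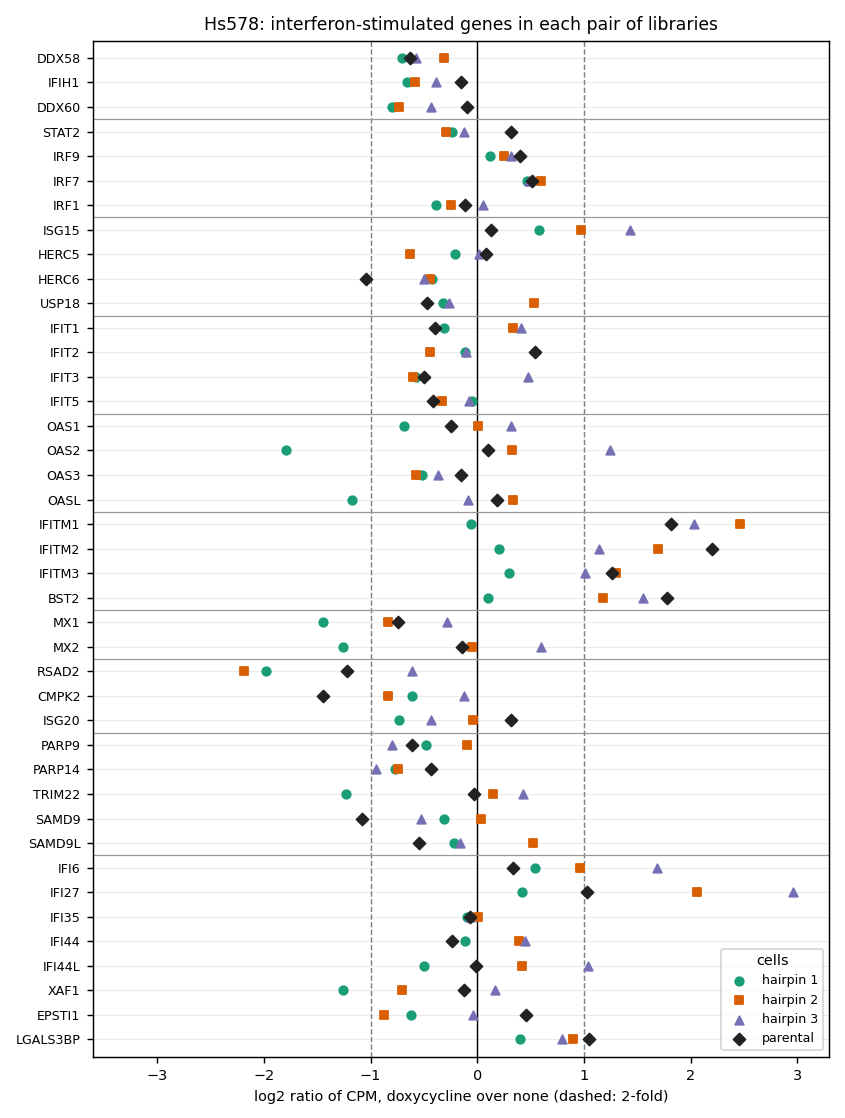
The same plot for Hs578, with the log2 ratio of CPM on the x axis and the 41 genes on the y axis, 1 point per pair. IFITM1, IFITM2, IFITM3, BST2, IFI6 and IFI27 lie to the right of 0 in the pairs of hairpins 2 and 3 and of parental cells, and RSAD2 lies to the left in all 4 pairs.

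The genes that rose included all 3 IFITM genes. IFITM1 stood at 8.09 to 28.8, 7.44 to 7.14, 3.9 to 21.9 and 5.47 to 22.8 CPM, in the order used above, and its log2 fold change over the hairpin lines was 1.62 (SE 0.40, adjusted p = 0.0152). It was high with doxycycline in parental cells and with hairpins 2 and 3 but not with hairpin 1, so the groups of 3 overlapped. IFITM2 had 22 to 102, 25.6 to 29.6, 24.3 to 78.7 and 24.4 to 53.8 CPM, with 1.12 (SE 0.28, adjusted p = 0.014). IFITM3 had 532 to 1275, 596 to 733, 661 to 1628 and 613 to 1234 CPM, with 0.94 (SE 0.21, adjusted p = 0.00622). Both were higher in every induced library, and least so with hairpin 1. On the FPKM scale the IFITM1 change was smaller, and limma on log2(FPKM + 1) gave 0.84 for IFITM1, 0.90 for IFITM2 and 0.70 for IFITM3. BST2 had 6.54 to 22.7, 8.72 to 9.38, 7.01 to 16 and 8.52 to 25.3 CPM and did not pass, with 1.07 (SE 0.41, adjusted p = 0.074).

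ISG15 had 9.64 to 10.5, 7.79 to 11.7, 8.78 to 17.3 and 8.7 to 23.6 CPM in Hs578, with 1.06 (SE 0.34, adjusted p = 0.0385), and was lowest among the induced libraries in parental cells. IFI27 had 0.803 to 1.75, 0.988 to 1.36, 0.488 to 2.39 and 0.864 to 7.45 CPM, a low level throughout, with 2.28 (SE 0.65, adjusted p = 0.0235). LGALS3BP had 207 to 427, 226 to 298, 246 to 459 and 248 to 429.8 CPM, with 0.72 (SE 0.19, adjusted p = 0.0133). IFI6 had 32.1 to 40.4, 28.1 to 41.1, 29 to 56.7 and 29.2 to 94.4 CPM and missed the threshold, with 1.16 (SE 0.39, adjusted p = 0.0523). For ISG15, IFI27, LGALS3BP and IFI6 all 3 induced hairpin libraries lay above the 3 uninduced ones, as they did for 22.1% of all genes. Reads of mitochondrial genes made up 2.16% to 2.79% of the 4 uninduced Hs578 libraries and 3.18%, 4.27% and 5.44% in the induced lines with hairpins 1, 2 and 3, and 4.16% in induced parental cells. The share was thus higher in the same libraries, and its part in these values was not tested.

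The genes that were lower included sensors and ADP-ribosyltransferases. RSAD2 had 5.8 to 2.43, 1.39 to 0.272, 1.52 to 0.247 and 1.32 to 0.828 CPM, with -1.57 (SE 0.46, adjusted p = 0.0211), and its induced library was below its partner in all 4 pairs. PARP14 had 83.8 to 61.9, 85.1 to 49.8, 74.4 to 44.4 and 72.9 to 37.7 CPM, with -0.82 (SE 0.18, adjusted p = 0.00649). PARP9, which works as a pair with the ubiquitin ligase DTX3L, had 53.1 to 34.8, 51.4 to 36.7, 44.8 to 41.8 and 47.4 to 27.3 CPM, with -0.45 (SE 0.15, adjusted p = 0.0403). IFIH1 had 12.2 to 11, 11 to 6.94, 9.57 to 6.35 and 8.98 to 6.86 CPM, with -0.55 (SE 0.16, adjusted p = 0.0174). For these 4 genes the induced and uninduced groups of 3 did not overlap, where 21.9% of all genes were lower without overlap.

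The other sensors were also lower in every Hs578 pair without passing the test, DDX58 at 27.8 to 17.9, 26.4 to 16.1, 20.7 to 16.7 and 23 to 15.4 CPM and DDX60 at 19.5 to 18.2, 19.9 to 11.4, 17.6 to 10.6 and 17.9 to 13.2 CPM. Of the transcription factors, IRF7 was higher in all 4 pairs at 10.7 to 15.3, 10 to 13.9, 12.2 to 18.5 and 9.91 to 13.9 CPM, with 0.52 (SE 0.20, adjusted p = 0.0689), and IRF9 at 18.1 to 24, 18.8 to 20.4, 19.9 to 23.6 and 19.3 to 24 CPM, with 0.23 (SE 0.12, adjusted p = 0.172). STAT2 had 40.7 to 50.8, 40.9 to 34.7, 42.2 to 34.5 and 38.9 to 35.7 CPM and IRF1 had 51.5 to 47.7, 53.9 to 41.3, 58 to 49 and 56.6 to 58.7 CPM. Neither passed the test.

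The IFIT genes, whose TT642 estimates were among the lowest, did not pass the test in Hs578. IFIT1 had 9.18 to 6.95, 7.79 to 6.26, 5.61 to 7.09 and 5.64 to 7.51 CPM. IFIT2 had 1.78 to 2.63, 1.63 to 1.5, 1.83 to 1.32 and 1.79 to 1.66 CPM. IFIT3 had 16.1 to 11.4, 12.7 to 8.5, 14.9 to 9.73 and 10.1 to 14.1 CPM. Each of these 3 was above its partner in at least 1 induced library and below it in the others. IFIT5 had 25.1 to 18.8, 18.1 to 17.5, 23.5 to 18.6 and 20.6 to 19.5 CPM, below its partner in each pair. The OAS genes differed between hairpins, and OAS2 had the widest range, with 7.23 to 7.76, 5.46 to 1.5, 3.72 to 4.7 and 2.76 to 6.68 CPM. OAS1 had 6.03 to 5.06, 4.01 to 2.45, 3.78 to 3.79 and 3.11 to 3.9 CPM. OAS3 had 10.4 to 9.31, 10.1 to 7.0, 10.1 to 6.76 and 9.04 to 6.98 CPM. OASL, which stayed at a few CPM, had 1.95 to 2.23, 2.44 to 1.02, 1.22 to 1.57 and 2.02 to 1.89 CPM. OAS3 was lower in each of the 4 pairs, and none of the 4 OAS genes passed the test.

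MX1 had 8.78 to 5.2, 5.0 to 1.77, 3.78 to 2.06 and 4.26 to 3.49 CPM, lower in each pair. MX2 had 5.51 to 4.99, 4.88 to 1.97, 3.84 to 3.71 and 3.05 to 4.67 CPM and was past 2-fold lower with hairpin 1 and in no other pair. CMPK2 had 4.59 to 1.62, 2.96 to 1.9, 2.74 to 1.48 and 2.07 to 1.89 CPM, also lower in each pair. ISG20, the exonuclease, had 3.5 to 4.39, 2.67 to 1.56, 4.57 to 4.45 and 3.63 to 2.66 CPM. HERC6 had 10.1 to 4.86, 7.5 to 5.58, 7.01 to 5.11 and 6.33 to 4.44 CPM, lower in each pair. USP18 had 5.85 to 4.18, 5.64 to 4.49, 4.02 to 5.86 and 5.36 to 4.44 CPM. HERC5, the ISG15 ligase, did not exceed 0.174 CPM in any Hs578 library. SAMD9 had 96.6 to 45.6, 89.7 to 72, 70 to 71.9 and 76.5 to 52.9 CPM and so was far above its TT642 level in every library. SAMD9L had 34.8 to 23.9, 33.1 to 28.4, 24.3 to 34.8 and 27.2 to 24.2 CPM. TRIM22, a ubiquitin ligase with antiviral activity, had 7.4 to 7.22, 6.68 to 2.79, 3.72 to 4.12 and 4.55 to 6.15 CPM.

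XAF1 had 8.89 to 8.17, 8.6 to 3.54, 9.33 to 5.69 and 7.77 to 8.75 CPM in Hs578. EPSTI1 had 4.88 to 6.75, 4.77 to 3.06, 4.94 to 2.64 and 4.32 to 4.2 CPM. In both, 1 of the 4 pairs went up and the others down. IFI35 had 16.3 to 15.5, 15.9 to 14.8, 20.5 to 20.6 and 18.5 to 17.7 CPM, nearly level in each pair. IFI44 had 7.57 to 6.41, 7.38 to 6.8, 4.88 to 6.43 and 5.64 to 7.75 CPM. IFI44L had 3.62 to 3.58, 3.6 to 2.52, 1.89 to 2.56 and 2.07 to 4.38 CPM, higher with hairpins 2 and 3. None of the genes from MX1 to IFI44L above passed the test in Hs578. Over all 41, the groups of 3 did not overlap for 9 higher and 12 lower genes, where 22.1% and 21.9% of all genes did so.

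The Hs578 calls depended on single libraries. None of the 10 was called in every alternative. Without hairpin 3, 1 was called, and without hairpin 1, 6, all of them higher. Leaving out single libraries gave 4 (uninduced hairpin 1), 6 (uninduced hairpin 2), 5 (induced hairpin 2), 5 (induced hairpin 3) and 16 (the induced TT642 library of hairpin 2). With the libraries of Hs578 alone, 18 were called, 9 in each direction. For these fits the share of all genes called is not given here. With the derived line as a block, ISG15 (adjusted p = 0.0613) and IFITM1 (adjusted p = 0.074) were no longer called and IRF7 was (adjusted p = 0.0363). Net of the parental pair, edgeR called 0 of the 41 Hs578 ISGs, with 1 at an unadjusted p under 0.05, where 0.406% of all genes were called, and DESeq2 and limma on FPKM also called 0. With all 4 Hs578 pairs in a block fit, added after seeing the data, 14 were called, 10 higher and 4 lower, where 36.6% of all genes were called.

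**Figure D4:**
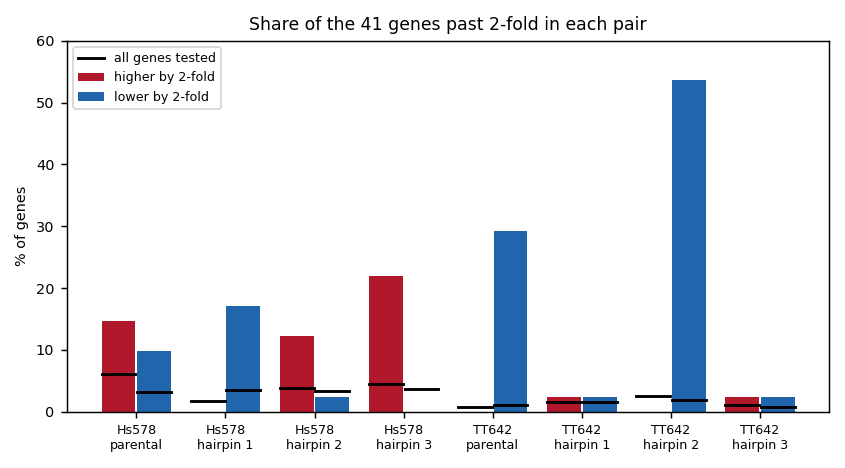
Percent of the 41 genes that were higher (red) or lower (blue) by at least 2-fold with doxycycline, for each of the 8 pairs on the x axis, with black lines at the percent of all 14035 genes tested. The 2 tallest bars are the lower genes of the TT642 pairs with hairpin 2 (22 of 41) and without a hairpin (12 of 41 by CPM, 6 by FPKM + 1).

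The doxycycline effect was then compared between the lines. The difference of the log2 effects in TT642 and Hs578 hairpin lines was called for 2 of the 41 ISGs, both lower in TT642, where 5.24% of all genes were called, 2.76% lower and 2.48% higher. The share called in either direction was thus no larger among the ISGs than among genes at large. ISG15 rose in Hs578 and had a TT642 estimate of -0.79 ± 0.29 (SE), a difference of -1.85 (SE 0.45, adjusted p = 0.0444). IRF7 had 0.52 ± 0.20 in Hs578 and -0.54 ± 0.18 in TT642, a difference of -1.06 (SE 0.27, adjusted p = 0.0442). For both genes the 3 Hs578 pairs went up and the 3 TT642 pairs down. With the derived line as a block both were called (adjusted p = 0.0436 and 0.0158). The count was 7 with DESeq2 and 5 with limma on log2(FPKM + 1), and also 5 without the induced Hs578 library of hairpin 1. It was 0 without hairpin 2, without hairpin 3 or without any 1 of 10 of the 12 hairpin libraries, the exceptions being the induced Hs578 library of hairpin 1 and the induced TT642 library of hairpin 2. Without hairpin 1, neither ISG15 nor IRF7 was called. For these alternatives the share of all genes called is not given here. Over these alternatives the adjusted p of ISG15 reached 0.398 and that of IRF7 0.264. IFIT2 had a difference of -1.23 (SE 0.51, adjusted p = 0.162) and IFIT1 of -1.46 (SE 0.48, adjusted p = 0.101), so for the IFIT genes a difference between the lines was not shown.

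Without doxycycline, ISG levels already differed between the 2 lines. In the uninduced hairpin lines, 39 of the 41 genes differed between TT642 and Hs578, where 80.8% of all genes did. These calls include HERC5, which passed the filter only through TT642, and PARP9, TRIM22 and EPSTI1, which passed only through Hs578. Each was kept by the line where it was high, so its call is no support for a difference between the lines. The counts and the median given here still include these genes. The direction was uneven, with 32 higher in TT642 and 7 lower, where 39.7% of all genes were higher and 41% lower. The median log2 difference was 1.76, beside -0.01 for all genes. Groups of 3 did not overlap for 32 higher and 8 lower ISGs, where 41.4% and 42.7% of all genes did so. The only 2 that were not called were BST2 and MX2, and 35 of the 39 calls were made in every alternative tried, STAT2, OAS1, RSAD2 and CMPK2 being the exceptions. With 1 cell line per label, differences of line, tissue of origin and culture medium cannot be told apart.

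**Figure D5:**
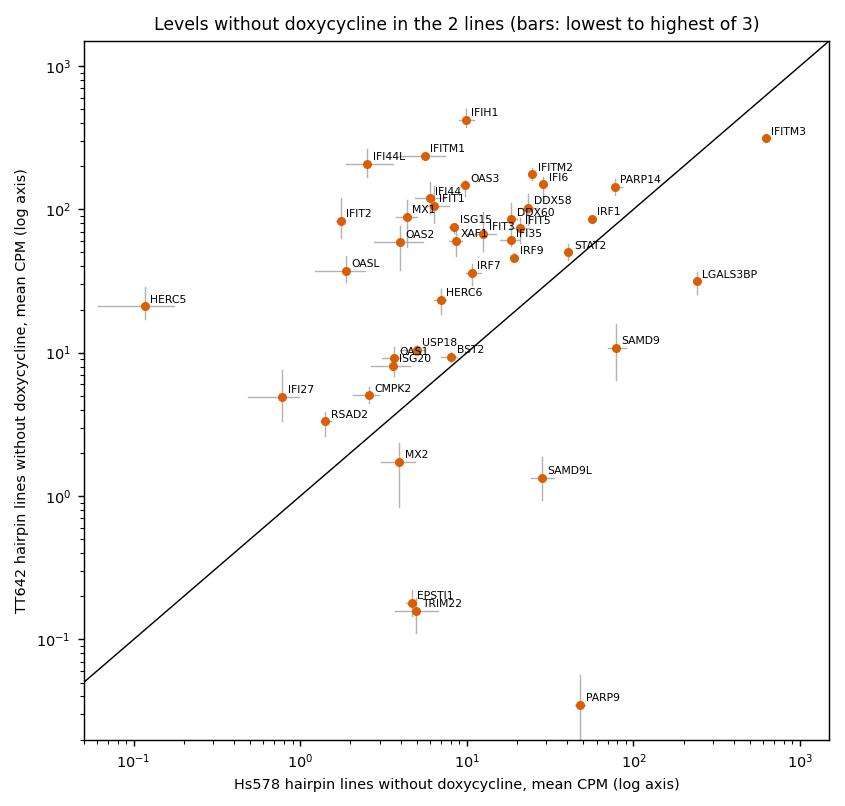
Mean CPM of each of the 41 genes in the 3 uninduced hairpin lines of Hs578 (x axis) and TT642 (y axis), both on log axes, with bars from the lowest to the highest of 3 libraries and a line of equality. Most genes lie above the line, and PARP9, TRIM22, EPSTI1, SAMD9L, SAMD9, LGALS3BP, IFITM3 and MX2 lie below it.

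The largest differences in favour of TT642 were in HERC5, IFI44L, IFIT2, IFIH1 and IFITM1. Of these, HERC5 passed the filter only through TT642. HERC5 had 6 counts summed over the 3 uninduced Hs578 hairpin libraries and 1201 in TT642, a ratio of 182 with a 95% counting interval of 83.2 to 496. IFI44L stood at 2.52 ± 0.941 CPM (SD, n = 3) in Hs578 and 208 ± 50.5 CPM (SD, n = 3) in TT642, a log2 difference of 6.36 (SE 0.27, adjusted p = 2.97e-10). IFIH1 stood at 9.87 ± 1.06 and 421 ± 73.1 CPM (SD, n = 3 each), with 5.41 (SE 0.15, adjusted p = 2.06e-13). IFIT2 had 5.57 (SE 0.31, adjusted p = 5.60e-09) and IFITM1 5.40 (SE 0.41, adjusted p = 5.44e-07) by edgeR. HERC6, the relative of HERC5, had a smaller difference, with 1.75 (SE 0.31, adjusted p = 2.31e-04).

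PARP9 was the most unequal of the 7 that were lower in TT642, and it passed the filter only through Hs578. It had 2443 counts summed over the 3 uninduced Hs578 libraries and 2 in TT642, a ratio of 1346 with a 95% counting interval of 372 to 11123. DTX3L, its partner and its neighbour in the genome, had 665 to 1868 counts in each Hs578 library and 0 to 2 in each TT642 library. TRIM22 was higher in Hs578 by a ratio of 31.2 (95% counting interval 16.2 to 69.1) and EPSTI1 by 26.2 (14.0 to 55.4). LGALS3BP had -2.93 (SE 0.20, adjusted p = 2.88e-08), SAMD9 -2.85 (SE 0.39, adjusted p = 6.22e-05), SAMD9L -4.39 (SE 0.31, adjusted p = 2.74e-08) and IFITM3 -0.99 (SE 0.21, adjusted p = 7.44e-04). PARP14, of the same family as PARP9, was higher in TT642, with 0.90 (SE 0.18, adjusted p = 4.69e-04).

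Levels can be ranked between genes on the FPKM scale, which is per length. Over the 4 uninduced libraries of each line, the median gene of the list was at 4.17 FPKM in Hs578 and 18.9 FPKM in TT642. In Hs578, 10 of the 41 were above 10 FPKM and 6 below 1 FPKM, and in TT642, 29 and 5. The highest FPKM medians in Hs578 were IFITM3 at 1080 (range 983 to 1191), IFITM2 at 147 (136 to 165) and IFITM1 at 74.8 (71.9 to 75.9). In TT642 they were IFITM2 at 909 (803 to 955), IFITM3 at 707 (640 to 743) and IFITM1 at 588 (544 to 604), followed by IFI6 at 222 (155 to 337), ISG15 at 133 (118 to 200) and IFIH1 at 95.1 (86.9 to 126). The ranges of IFI6 and ISG15 overlapped, as did those of ISG15 and IFIH1, so their order is not beyond the spread. The IFITM genes were split differently in the counts and in FPKM. IFITM1 in Hs578 had 3.90 to 8.09 CPM where its FPKM was 71.9 to 75.9, while in TT642 it had 217 to 245 CPM at 544 to 604 FPKM. The IFITM1 difference between the lines is therefore smaller on the FPKM scale, with a log2 difference of 2.96 by limma on log2(FPKM + 1) beside 5.40 by edgeR on the counts.

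The genes upstream of the ISGs were also examined. Of 21 interferon genes in the table, 14 had no count in any library. IFNB1 had 10 counts over 7 of the 8 TT642 libraries and 0 in Hs578, and IFNL1 had 25 counts over all 8 TT642 libraries and 1 in Hs578. IFNE, an epithelial type I interferon, had 214 counts over the 8 Hs578 libraries and 0 in TT642. The TT642 IFNL1 counts were 8 and 2 in parental cells without and with doxycycline, 1 and 1 with hairpin 1, 5 and 1 with hairpin 2, and 4 and 3 with hairpin 3. No direction can be read from so few reads.

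In the TT642 pair with hairpin 2, 1.93% of all genes were past 2-fold lower and 2.57% higher. Of 16 sensing genes tested, 1 was past 2-fold lower in that pair, AIM2, a DNA sensor, at 17.9 to 16.2, 17 to 9.83, 22.3 to 5.34 and 13.8 to 10.8 CPM over the 4 pairs. Another 2 were higher there, TLR9, with 0 and 5 counts, and TMEM173, which encodes the STING adaptor, at 5.63 to 7.04, 9.18 to 6.87, 8.36 to 17.3 and 8.4 to 9.73 CPM. None of 13 negative regulators passed 2-fold with hairpin 2. Of 43 other interferon-induced genes tested, 4 were lower (PLSCR1, SP110, APOL1 and GBP4) and 1, APOBEC3F, was higher at under 0.5 CPM. The median log2 ratio of these 43 was -0.51 with hairpin 2 and -0.28 in parental cells, beside -1.21 and -0.75 for the 41. PLSCR1, a scramblase, had 59.3 to 29.1, 40.1 to 31.3, 39.3 to 12.8 and 31.8 to 26.8 CPM, SP110, a nuclear body protein, had 31.2 to 21.2, 30.4 to 24.7, 31.3 to 15.2 and 23.6 to 25.5 CPM, and APOL1 had 26.9 to 16.4, 23.6 to 24.8, 36.5 to 17.3 and 24 to 28.4 CPM. Over the TT642 hairpin lines edgeR called 0 genes of each of these lists, with 8 of the 43 at an unadjusted p under 0.05. No share of all genes at that unadjusted level is given here.

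The same lists in Hs578 are read against the 15.2% of all genes that edgeR called higher and the 14.1% called lower there. The receptor list had 3 genes higher, IL10RB at a log2 fold change of 0.59 ± 0.09 (SE), IFNGR2 at 0.55 ± 0.10 and IFNGR1 at 0.35 ± 0.08, and 2 lower, IFNAR1 at -0.40 ± 0.11 and JAK1 at -0.23 ± 0.08, of 10 tested. Of 16 sensing genes, 1 was higher (IRF3) and 4 were lower (TLR3 at -1.21 ± 0.25, TRIM25 at -0.84 ± 0.12, MAVS at -0.67 ± 0.12 and TBK1 at -0.40 ± 0.12). Of 13 negative regulators, 3 were higher, SOCS1, PIAS4 and IRF2BP1, with SOCS1 at 0.87 ± 0.26, and 1, PTPN11, was lower. Of 43 other interferon-induced genes, 4 were higher (CCL5, LY6E, APOL2 and UBA7) and 5 lower (IFI16, APOL6, DTX3L, SAMHD1 and ADAR). IFI16, a DNA sensor, was at -0.82 ± 0.25 and SAMHD1, which depletes nucleotides, at -0.57 ± 0.11. The effect differed between the lines for SAMHD1, with 0.62 (SE 0.16, adjusted p = 0.0444), and for CCL5, with -3.92 (SE 1.02, adjusted p = 0.0435). In that comparison 5.24% of all genes were called, and the share of the 43 called was no larger. CCL5 had at most 6 counts in any Hs578 library, so its fitted value rests on few reads.

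Without doxycycline, the 43 other interferon-induced genes had no such excess in TT642, with 14 higher and 21 lower than in Hs578 and a median log2 difference of -0.31, beside 1.76 for the 41. Of all genes, 39.7% were called higher and 41% lower in this comparison, which is the background for these counts and those of the other lists. The largest differences among the 43 were in DTX3L, GBP2, CCL5, APOBEC3F and TNFSF10. Each was at or near 0 in TT642 or in Hs578, so the filter may have kept it only through the other line. Their calls are therefore no support for a difference, although the counts include them. The same holds for AIM2 and IFNLR1, given below. In the uninduced lines with hairpins 1, 2 and 3, GBP2, a guanylate-binding protein, had 6.92, 4.21 and 5.13 CPM in Hs578 and 0, 0 and 0 CPM in TT642. CCL5, a chemokine, had 0, 0.061 and 0 CPM in Hs578 and 5.84, 8.22 and 5.95 CPM in TT642. APOBEC3F, a cytidine deaminase, had 16.6, 16.6 and 14.6 against 0.113, 0.146 and 0.0556 CPM, and TNFSF10, the death ligand TRAIL, 0.814, 0.427 and 0.633 against 0, 0 and 0 CPM. Of these 5 genes CCL5 was the one with more RNA in TT642. Of 16 sensing genes, 11 were higher in TT642 and 4 lower, and AIM2 had 0, 0 and 0.23 CPM in Hs578 and 17, 22.3 and 13.8 CPM in TT642. Among the receptor and kinase genes, IFNAR2 was higher in TT642, at a log2 difference of 0.91. Lower there were IFNLR1, the lambda interferon receptor, with 1.05, 0.731 and 1.15 CPM in Hs578 and 0, 0 and 0 CPM in TT642, JAK2 at -1.0 and TYK2 at -0.49. Of 13 negative regulators, 5 were higher, with PTPN6, RNF125, SOCS1 and SOCS3 the most so, and 2 were lower.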

How the data were processed

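Counts and FPKM values were deposited by the authors, each with 1 column per library. One table has raw counts of reads for 20114 gene symbols, and the authors' other table has FPKM, fragments scaled by transcript length and depth, for 20111. The submitters' processing notes name the build hg19. Libraries of polyadenylated RNA were made with a stranded kit per the labels' protocols. No source used here names the aligner, the counter or the annotation, or says whether strand was used, so reads of near-identical or overlapping genes may have been split or dropped.

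The 41 genes and the lists beside them were chosen with earlier results of these data known. Columns were matched to samples by title, and no column was left without a sample. No 2 libraries agreed within sampling noise (lowest chi-square per degree of freedom 5.35). Counts were fitted with edgeR 4.0.16 in R 4.3.3 (TMM, its default expression filter with a minimum count of 10, robust quasi-likelihood, two-sided tests), with 1 mean for each of 8 groups over all 16 libraries and 8 residual degrees of freedom. The filter left 14035 genes, and calls were made at an adjusted p under 0.05 (Benjamini-Hochberg over these genes). Pair ratios set 1 library against 1 and used a prior count of 2. The edgeR fit was also run on simulated counts with 1 fixed spread and no differences between derived lines. That run does not show what would be missed at the spread of the real libraries. Values in every library are given for genes called in any test or past 2-fold in a TT642 pair at 1 CPM or more, and up to 5 called genes per list are named elsewhere. Some genes outside the rule are also named with their values, and some that it takes are not reported here.

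Alternatives were DESeq2 1.42.0, limma 3.58.1 on log2(FPKM + 1) and log2(FPKM + 0.1), relative log expression scaling, no filter, no robust moderation, the libraries of 1 line alone, a replicate block and leaving out replicates. Hairpin numbers in the titles name the derived line, so they pair libraries with and without doxycycline. Deviations of same-numbered libraries from their group means correlated at 0.44, 0.42 and 0.42 in TT642 and at 0.13, -0.03 and 0 in Hs578.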

Additional observations from a re-analysis of the deposited data

Results flagged for a closer look

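For 3 of the 41 genes the pair ratios of all hairpin lines had opposite signs in Hs578 and TT642. The share of all genes with such signs is not given here. ISG15 was higher with doxycycline in all 3 Hs578 hairpin lines and lower in all 3 TT642 hairpin lines, and the difference of the log2 effects, TT642 minus Hs578, was -1.85 by a direct test in edgeR (adjusted p = 0.0444). IRF7 showed the same arrangement with a difference of -1.06 (adjusted p = 0.0442). That test called 5.24% of all genes, and the share of the 41 called was no larger. Neither gene was called when the libraries of hairpin 1, of hairpin 2 or of hairpin 3 were left out. IRF9 had such signs as well, with a difference of -0.41 that did not pass the test (adjusted p = 0.145). Its ratio with Hs578 hairpin 1 was 109% (95% interval 92.6% to 128%), within counting error. Each of the parental pairs, which have no hairpin, had ratios on the same side as the hairpin lines of its line for these 3 genes. For ISG15 in Hs578 parental cells the ratio was 109% (95% interval 87.3% to 137%), so no direction is shown there.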

How the results depend on the processing

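No estimate that was called changed sign under any alternative. The ISG count in Hs578 hairpin lines (10) was 18 with that line alone and ran from 1 to 16 when a replicate or library was left out. The TT642 count (0) was 1 without robust moderation, 6 with DESeq2 and 1 with limma on log2(FPKM + 1), and ran from 0 to 1 on leaving libraries out. The count of differences between the lines (2) was 1 without the expression filter, 7 with DESeq2 and 5 with limma on log2(FPKM + 1), and ran from 0 to 5. The difference between uninduced lines (39) ran from 36 to 40, that between uninduced TT642 hairpin lines and parental cells (0) from 0 to 5, and the counts net of the parental pair stayed at 0. By the ratio of FPKM + 1, the genes past 2-fold numbered 6 in Hs578 parental cells, 0 with Hs578 hairpin 1, 6 in TT642 parental cells, 0 with TT642 hairpin 1 and 1 with TT642 hairpin 3. The cause of these shifts was not tested. No share of all genes called or past 2-fold under these alternatives stands beside these counts, so they are not read as results about the ISGs. With the replicate block of derived lines, which leaves 4 residual degrees of freedom, 9 ISGs were called in Hs578, 0 in TT642 and 2 for the difference. Beyond ISG15, IFITM1 and IRF7 in Hs578, and PRRX1 there, which was not called with it, the block changed no call among the genes named. With the hairpin number as a block between the lines, 39 were called. At 1 library per pair, depth limits what can be said of MX2, PARP9, TRIM22, EPSTI1, HERC5 in Hs578 and the interferon genes, which had few reads.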
